A study of Drosophila melanogaster with 2 samples.

Results

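Chromatin bound by Sequoia was examined at 5 genes that pattern the Drosophila head: empty spiracles (ems), ocelliless (oc, also called orthodenticle), buttonhead (btd), Sp1 and cap-n-collar (cnc). A peak was counted for a gene when its summit lay in the gene body or within 10 kb either side of it, by the Ensembl BDGP6.54 annotation. Under this rule the 5 genes, of 13968 protein-coding genes, held 18 of the 4099 peaks of the conservative set on the chromosome arms. They held 19 of 5286 peaks in the pooled set, 19 of 4069 in the set of replicate 1 and 10 of 2675 in the set of replicate 2.

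The data are ChIP-seq peak lists on the dm6 build from whole Drosophila melanogaster embryos collected 0 to 24 h after laying. The embryos, of the strain labelled seq-GFP (described as an insertion that targets seq), expressed a fusion of Sequoia with eGFP, and chromatin fragmented by sonication was precipitated with an antibody against GFP. There was 1 group of 2 biological replicates and no other condition, so no test between groups could be made, and the values below are descriptions set beside those of all genes or all peaks. Peak strength is the signal that the authors' peak caller gave, which ranks peaks within a list. The conservative set is the authors' list of peaks reproduced between the replicates at an irreproducible discovery rate (IDR) of 0.01 or less. How deeply either library was sequenced is not given in the sources used here, and the precision behind a peak's signal is therefore unknown. Whole embryos of all these ages mix many cell types, and the lists do not tell in which cells a site was bound.

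Sequoia, encoded by seq, is a nuclear zinc finger protein of neurons, where it shapes axons and dendrites. The genes oc, ems and btd are the head gap genes: in the early embryo they are switched on in overlapping anterior stripes under the maternal Bicoid gradient, and head segments are lost where they are missing. Both oc and ems encode homeodomain proteins, and both act again in the embryonic brain. Buttonhead and Sp1 are zinc finger proteins of the Sp family whose genes lie side by side, and they act together in the primordia of the ventral appendages. The gene cnc encodes basic leucine zipper proteins. One of its isoforms, CncB, acts in the mandibular segment, and another, CncC, is known for the response to oxidative stress.

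The sequences under the summits at the gene starts are shown first, since every one of the 5 genes had such a summit. Each is 101 bases of the plus strand of the Release 6 genome (RefSeq assembly of dm6) centred on the summit, and a pair of other windows that are described below follows. Capitals mark matches, on either strand, to any of the 10 words searched. These were the Bicoid and Oc word TAATCC, the homeodomain core TAATTA, the GAGA factor word GAGAGA, the Zelda word CAGGTA, an E-box CAGGTG with a further E-box written CAGCTG, the word ACAGTG, a GC box of letters GGGCGG, the GATA factor core GATAA and the repeat word CACACA.
ems start (chr3R:13901657-13901757): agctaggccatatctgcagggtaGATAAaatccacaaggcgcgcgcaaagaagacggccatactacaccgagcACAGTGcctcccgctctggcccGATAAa
oc start (chrX:8650923-8651023): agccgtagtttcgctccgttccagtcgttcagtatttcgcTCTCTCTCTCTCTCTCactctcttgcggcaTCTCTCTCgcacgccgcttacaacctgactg
btd start (chrX:9693927-9694027): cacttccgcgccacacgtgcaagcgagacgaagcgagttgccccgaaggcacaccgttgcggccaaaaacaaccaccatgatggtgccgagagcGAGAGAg
Sp1 start (chrX:9729408-9729508): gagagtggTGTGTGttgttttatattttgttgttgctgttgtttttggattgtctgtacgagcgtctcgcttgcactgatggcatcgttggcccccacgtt
cnc internal start (chr3R:23190088-23190188): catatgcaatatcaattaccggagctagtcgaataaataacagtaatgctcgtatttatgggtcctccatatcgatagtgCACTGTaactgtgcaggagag
oc intron (chrX:8640960-8641060): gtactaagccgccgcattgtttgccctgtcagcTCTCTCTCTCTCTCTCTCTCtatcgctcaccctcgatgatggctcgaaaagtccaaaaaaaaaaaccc
ems downstream (chr3R:13907848-13907948): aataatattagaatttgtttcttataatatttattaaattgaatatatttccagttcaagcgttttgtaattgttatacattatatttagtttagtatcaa

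**Figure D1:**
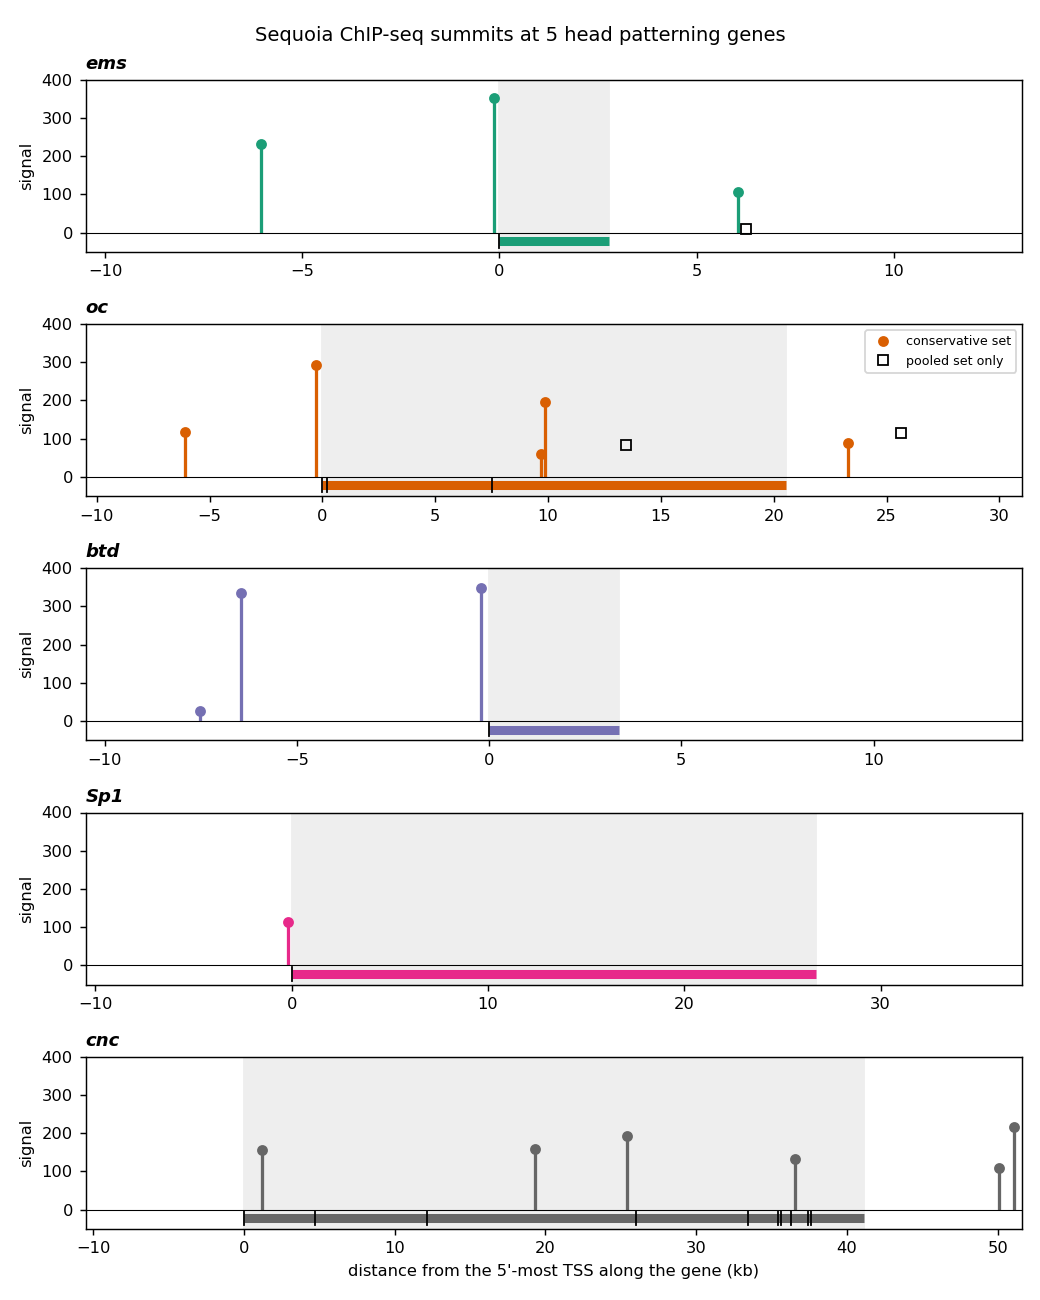
Summits of the conservative set at each gene, by distance in kb from the gene's 5'-most transcription start site (TSS) along the gene and by the authors' signal. Grey shading and the bar under each axis mark the gene body, black ticks mark every annotated TSS, and open squares are summits of the pooled set that the conservative set lacks. The summit nearest to the start is the tallest at ems, oc and btd, Sp1 has no other, and the 6 summits of cnc are spread over the gene and beyond its end.

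All 5 genes had a conservative summit within 500 bp of one of their own TSSs, against 13.8% of all protein-coding genes. That share is not matched for the number of TSSs, of which oc has 3 and cnc 10. The 5 genes were also chosen with earlier results of these data known. At an IDR of 0.001 or less, 3 of the 5 (ems, oc and btd) kept such a summit. The share of all genes at that stricter limit is not given here. The start summits that did not pass it had an IDR of 0.00103 (cnc) and 0.00639 (Sp1). At ems, oc, btd and Sp1 the start summit lay upstream of the gene, at 146 bp (ems), 292 bp (oc), 209 bp (btd) and 190 bp (Sp1). At cnc it lay 281 bp inside the transcript cnc-RE, whose TSS is 1 of 10 distinct TSSs of the gene. The median signal of these 5 start summits was 292, against 128.7 for all conservative promoter peaks.

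Starting with the homeodomain genes, the summit at the ems start (chr3R:13901592-13901758) had a signal of 353.3 and rank 256 of 4099. Its signal was 218 in replicate 1 and 133 in replicate 2, and it was in the set of each replicate. Only 1.52% of protein-coding genes had a promoter summit as strong. A summit 6048 bp upstream had a signal of 230.6 (rank 619), with 168 in replicate 1 and 64.0 in replicate 2. A summit 6045 bp downstream of the TSS, past the gene's end, had 107.5 (rank 2348), with 46.7 in replicate 1 and 62.3 in replicate 2. Within this window the outer summits stood at nearly the same distance on either side of the TSS, at signals below the one at the start. This spacing depends on the 10 kb limit, since a further downstream summit (signal 119), 13043 bp from the TSS, lay 276 bp past the window. No summit fell within the ems gene body, a region of 1 annotated transcript.

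The window of oc held 5 summits. The strongest, 292 bp upstream of the TSS used by 4 of its 6 transcripts and 485 bp upstream of a further TSS (oc-RE), had a signal of 292.0 (rank 388), with 159 in replicate 1 and 126 in replicate 2. A pair of summits lay in an intron, 2368 bp and 2166 bp downstream of the internal start of oc-RD. The stronger had a signal of 195.7 (rank 859), with 119 in replicate 1 and 83.1 in replicate 2, and the weaker had 61.1 (rank 3816), with 33.7 in replicate 1. Their summits were 202 bp apart, the peaks overlapped, and the same peak of replicate 2 lay nearest to both, so replicate 2 gives no separate value for the weaker summit. An intergenic summit 6112 bp upstream of the gene had 118.2 (rank 2017), with 65.7 in replicate 1 and 52.6 in replicate 2, and one past its end had 88.5 (rank 3072), with 60.2 in replicate 1 and 35.3 in replicate 2. The start summit and the upstream one were in the sets of both replicates, and the one past the end was in that of replicate 1 only.

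Of the Sp-family pair, btd held 3 summits and Sp1 held 1. The btd start summit (chrX:9693892-9694007) had a signal of 349.5 (rank 260), with 228 in replicate 1 and 121 in replicate 2. A summit of nearly equal strength lay 6460 bp upstream of btd, with a signal of 336.2 (rank 292), 179 in replicate 1 and 144 in replicate 2. It was 463 bp upstream of the TSS of a long noncoding RNA, lncRNA:CR42657, and the lists do not tell which of these genes the site belongs to. The third, 7534 bp upstream of btd, lay 6 bp from a TSS of nej, which encodes the histone acetyltransferase CBP. That one was the weakest of the 18, at 27.8 (rank 3907), was in neither replicate's set nor in the pooled set, and had no overlapping peak in the ranked list of replicate 2.

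The Sp1 summit (chrX:9729263-9729652) had a signal of 113.4, rank 2153, with 80.3 in replicate 1 and 29.6 in replicate 2. It was in the set of replicate 1 and not in that of replicate 2. The 32.1 kb between the end of btd and the start of Sp1 held this 1 conservative summit and no other, and none lay in the Sp1 gene body or downstream of it within the window. At the paired genes the start summit was thus 349.5 at btd and 113.4 at Sp1, both values of the conservative list.

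The gene cnc, the longest of the 5, held 6 summits, more than any of the others. Within the gene they lay 1225 bp downstream of the 5'-most TSS (155.3, rank 1301), in an intron 19281 bp along the gene (159.2, rank 1239), 571 bp upstream of the TSS of cnc-RB (193.3, rank 876) and at the cnc-RE start (133.1, rank 1689). Their signals in replicate 1 were 100, 111, 143 and 52.2, in that order along the gene, and in replicate 2 they were 41.3, 45.6, 47.9 and 75.1, so that the start summit of cnc-RE was lowest of the 4 in replicate 1 and highest in replicate 2. The TSS shared by cnc-RC and 3 other transcripts had its nearest conservative summit 3525 bp away. A further pair lay past the 3' end of cnc, inside introns of Irk1, a potassium channel gene, and CG46310, with signals of 216.8 (rank 701; 113 in replicate 1 and 94.8 in replicate 2) and 108.5 (rank 2320; 74.0 in replicate 1 and 30.9 in replicate 2). The first of these was the strongest in the cnc window and lay 35 bp inside its edge, so whether it counts for cnc depends on the 10 kb limit. The conservative summit nearest outside any of the 5 windows was 276 bp beyond that of ems, with a signal of 119. In replicate 1's own set a weaker summit (51.8) also lay 498 bp upstream of the start of cnc-RL.

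**Figure D2:**
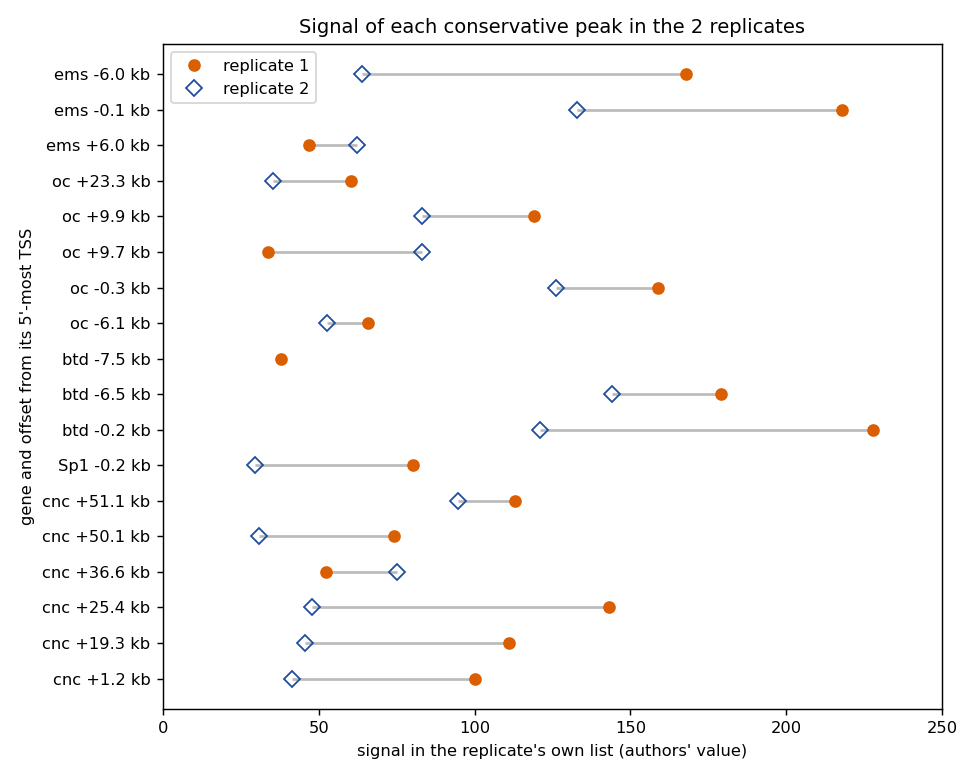
Signal of each of the 18 conservative peaks in the list of replicate 1 (filled circles) and of replicate 2 (open diamonds), with the gene and the offset in kb from its 5'-most TSS on the vertical axis. Lines join the values of a peak. The circle lies to the right at 14 of 17 peaks that have both values. Over all conservative peaks the median log2 ratio of replicate 1 to replicate 2 was also above 0, at 0.21. Of the 17, 14 lay above that median, as 50% of all peaks do by definition. Among the cnc peaks the widest gap is at the one 571 bp upstream of cnc-RB, at 143 and 47.9.

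The median signal of the 18 peaks was 157.3, against 117.1 for all 4099 conservative peaks, and they ranged from 27.8 to 353.3. Of the 18, 12 lay above the median of the list, as 50% of all peaks do by definition. Among the 400 strongest of the 4099 were 4 of the 18: the start summits of ems, btd and oc and the upstream summit of btd. These 4 also had an IDR of 1e-05, the lowest that the deposited values can take because they are capped there. The share of all conservative peaks at this cap is not given here. The IDR was highest at the nej summit (0.00909), the weaker oc intron summit (0.00789) and the Sp1 start (0.00639). The 13 summits away from the genes' own starts had a median of 155.3, against 110.5 for all conservative peaks outside promoters. These 13 include the pair near starts of nej and lncRNA:CR42657.

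The windows also held more summits per length than the genome did on average, for genes chosen with earlier results of these data known. The 5 windows together span 194.5 kb and held 92.5 summits per Mb (exact 95% Poisson interval 54.8 to 146, for counting error only), against 29.8 per Mb over the 7 arms, gene-poor stretches included. Of the 5 genes, 4 held 3 or more summits, against 13.5% of all protein-coding genes, and each held at least 1, against 54.3%. These shares are not matched for window length. At btd the count of 3 includes the weak nej summit (27.8), and in the pooled set btd held 2. With 5 kb either side in place of 10 kb, 2 of the 5 (oc and cnc) held 3 or more, against 6.49% of all, and btd held 1. The order by density was ems (0.132 per kb of window), btd (0.128), oc (0.123), cnc (0.0981) and Sp1 (0.0214). As dense or denser windows were found at 7.88% of protein-coding genes for ems and 10.9% for cnc, and at 53.1% for Sp1. The first 3 rest on 3 to 5 summits each, and their exact 95% Poisson intervals (ems 0.0272 to 0.385, btd 0.0265 to 0.375, oc 0.0401 to 0.288 per kb) overlap.

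**Figure D3:**
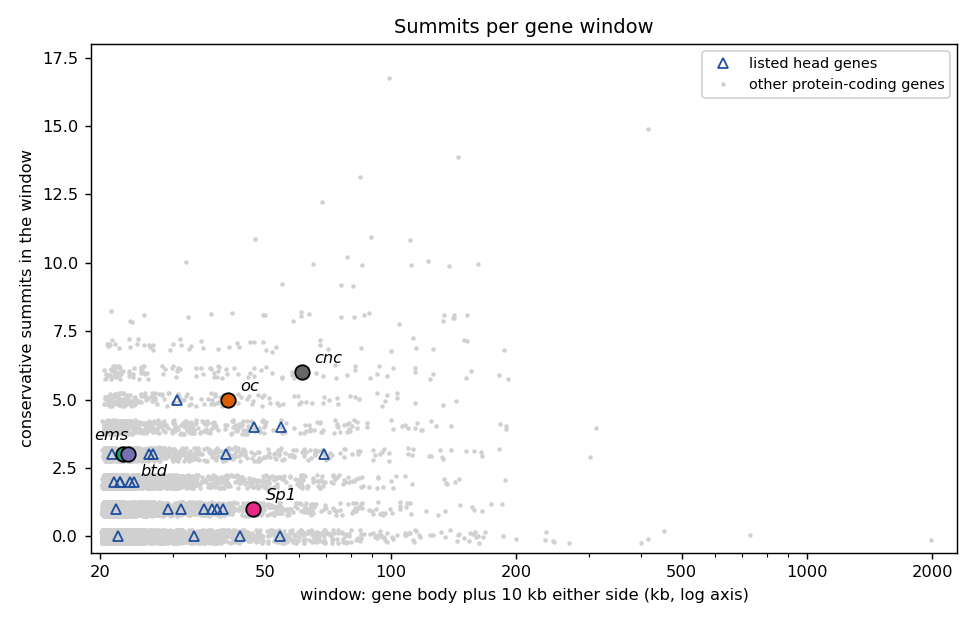
Conservative summits in each gene window (vertical axis) against the length of the window in kb (log axis), for the 5 head patterning genes (large circles), 24 further head genes (triangles) and all other protein-coding genes (grey points, spread vertically by a small random amount). Among the 5, cnc is highest with 6 summits, and Sp1 is lowest with 1 summit in 46.7 kb.

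By place, 7 of the 18 summits lay within 500 bp of any TSS (44.6% of all conservative peaks did), 7 in introns and 4 between genes. Of the 18, 8 were upstream of the gene they were counted for, 6 within its body and 4 past its end. For 13 of them the nearest TSS belonged to the gene itself, and for the other 5 it belonged to nej, lncRNA:CR42657, CG46310, Irk1 or fzo, a mitochondrial fusion gene of spermatids that lies inside cnc. Apart from the share near a TSS, these counts have no share over all conservative peaks beside them and describe the 18 only. The ranked list held 3 more peaks in the windows with an IDR close to the limit. At oc these were an intronic one (84.1, IDR 0.0104) and an intergenic one 18128 bp from the start of oc-RD (115, IDR 0.0121), both of which the pooled set includes. At ems it was one 4811 bp upstream (56.3, IDR 0.0189).

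The thresholded sets of the replicates, of 4069 and 2675 peaks, differed in which of these sites they held. In the ranked lists, 17 of the 18 had an overlapping peak in both replicates, as did 4074 of all 4099 conservative peaks. Of the 18 conservative peaks, 16 overlapped a peak in the set of replicate 1 (73.6% of all conservative peaks did), 11 one in the set of replicate 2 (59.7%) and 10 both (49.8%). All 6 cnc peaks were in the set of replicate 1 and 2 of them in that of replicate 2, whereas at btd the same pair of peaks was in each. The cnc peaks outside the set of replicate 2 had signals of 30.9 to 47.9 in its ranked list. Read from each replicate's own set, 10 of the 19 peaks of replicate 1 (52.6%) overlapped one of replicate 2, against 50.8% over that whole set, and 9 of the 10 of replicate 2 (90%) overlapped one of replicate 1, against 76.5%. Of the 10 from replicate 1, 1 was a weak peak (2.47) beside the oc start peak that overlaps the same peak of replicate 2. With summits required within 100 bp of each other, 9 were shared, and the share of the whole set by that rule is not given here. Among the 18 conservative peaks, the weaker oc intron peak counts through a peak that also overlaps its neighbour. The 16 therefore rest on 15 distinct peaks of replicate 1 and the 11 on 10 of replicate 2. The pooled set held 16 of the 18 at the very same position (89.8% of all conservative peaks), lacking the weakest pair, at nej and in the oc intron, and 17 by overlap (93.4%), since the weaker oc intron peak overlaps its neighbour's pooled peak.

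Signals of the libraries were compared as the log2 ratio of replicate 1 to replicate 2, less the median ratio of 0.21 over the 4074 conservative peaks with both values. The relative ratio had a median of 0.50 over the 17 peaks of the 5 genes with both values, and ranged from -1.51 to 1.37. The middle 50% of all conservative peaks lay between -0.36 and 0.42. At cnc it was above 1 at 4 of 6 peaks, a value found at 6.04% of all conservative peaks, at 9.45% of those with a signal of 100 to 250 and at 8.43% of those on chromosome arm 3R. These were the summits 1225 bp and 19281 bp along the gene (1.07 and 1.08), the one 571 bp upstream of cnc-RB (1.37) and the weaker one in Irk1 (1.05). The cnc-RE start summit went the other way, at -0.73, with 52.2 in replicate 1 and 75.1 in replicate 2. The upstream summit of ems (1.18) and the Sp1 summit (1.23) were also above 1, and no summit of oc or btd was. The lowest value, -1.51, belongs to the weaker summit of the oc intron, which shares its replicate 2 peak with its neighbour. With 2 replicates and no stated rescaling between them, differences between sites in this ratio were not tested.

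**Figure D4:**
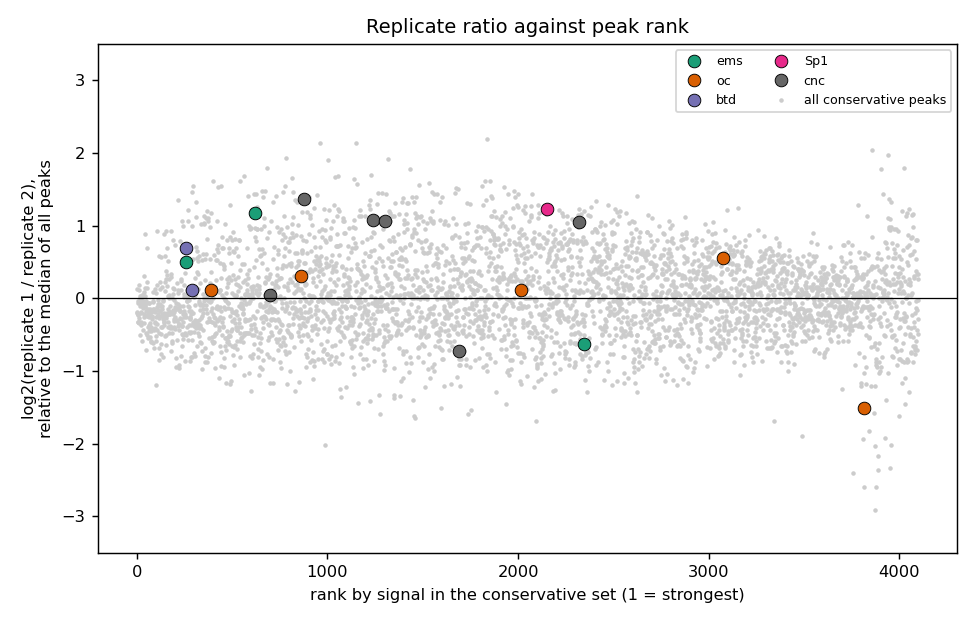
Log2 ratio of replicate 1 to replicate 2 signal, less the median of all conservative peaks, against the rank of the peak by signal. Grey points are all conservative peaks with both values, and coloured points are the peaks of the 5 genes. Of the coloured points, 6 lie above 1, and 4 of these are at cnc.

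Base composition and short words differed widely among the 18 windows printed in part above. At least 1 of the 10 words was in 12 of the 18 windows (66.7%), against 51.9% of all conservative windows. Within 100 bp of the summit the shares lay closer together, at 15 of 18 (83.3%) against 79.0%. GC content ran from 16.8% at the ems downstream summit to 61.4% at the btd start, with a median of 46.0%, against 35.6% over all conservative peaks. The GAGA factor word was in 3 of 18 windows (16.7%), against 7.42% of all conservative windows. These were the oc start and the weaker oc intron summit, where it forms long runs of CT on the plus strand, and the btd start, where it lies near the edge of the window. The weaker oc intron peak overlaps a stronger neighbour and was not in the pooled set at the same position. CACACA was in 4 of 18 (22.2%, against 9.51%): the summits at Sp1, nej, upstream of cnc-RB and in the cnc intron 19281 bp along the gene. The nej summit was the weakest of the 18 and had no overlapping peak in replicate 2. Among the 10 summits of the set of replicate 2 alone, CACACA was in 0 windows and GATAA in 1. Shares of that whole set are not given here for these words. ACAGTG was in 2 of 18 (11.1%, against 7.25%), at the ems start and the cnc-RE start. GATAA was in 3 (against 21.2% of all), and the GC box, of the kind that Sp proteins bind, in 1, the stronger oc intron summit (against 3.0%).

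The remaining 5 words were in 0 of the 18 windows, which allows a share of up to 16.7% (a limit of 3 counts, for counting error only). They are the Bicoid and Oc word (in 2.88% of all conservative windows), the homeodomain core (8.2%), the Zelda word (1.98%) and both E-boxes, of which CAGGTG was in 2.44% and the other in 3.73%. These zeros depend on the window and the set. Within 100 bp of the summit the homeodomain core was in 2 windows (11.1%, against 14.5% of all conservative windows) and the Zelda word and CAGCTG in 1 each (5.56%, against 4.07% and 9.03%), while the Bicoid and Oc word and CAGGTG were still in 0. In the set of replicate 1 alone CAGCTG was in 1 window, and its share of that whole set is not given here. A match is a description of the letters and not a bound site, and no share among the 18 windows was tested.

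Among 24 further genes of head development listed for comparison, 20 had a conservative summit in their window (83.3%, against 54.3% of protein-coding genes) and 14 had one within 500 bp of a TSS (58.3%, against 13.8%). The strongest of these start summits was at Dfd (463.4), a Hox gene of the head, whose window held 5 summits with a summed signal of 992. Next came hbn, a homeodomain gene of the brain (347.6), Optix, an eye and head gene (307.2), hkb, a terminal gap gene (303.6), and slp1, a head and pair-rule gene (298.7). The start summits of ems (353.3) and btd (349.5) lay between those of Dfd and hbn, that of oc (292.0) just under slp1, and those of cnc (133.1) and Sp1 (113.4) lower. No conservative summit lay in the windows of tll, ey, pb and hh. The list was drawn up with earlier results of these data known.

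For each of the 5, the gene most like it was taken as the one with the same number of summits in its window and the closest summed signal, leaving out genes that share a summit with it. For ems this was CG7970 (3 summits, summed signal 688, against 691 at ems), for oc CG33158 (5 summits, 753, against 756), for btd CG33723 (3 summits, 712, against 714), for Sp1 mdu (1 summit, 113 at each) and for cnc Mettl2 (6 summits, 967, against 966). Count and summed signal match by this rule, which took no account of window length. The windows spanned 21.3 kb at Mettl2 against 61.1 kb at cnc, and 97.0 kb at CG33158 against 40.5 kb at oc. The remaining pairs were closer: CG7970 21.5 and ems 22.8 kb, CG33723 20.7 and btd 23.4 kb, mdu 39.4 and Sp1 46.7 kb. These matches rest on the conservative list alone, made from 2 replicates, with 110 to 3613 genes of equal count to choose from.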

How the data were processed

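Per the deposited text files, the authors mapped to dm6 and made 8 peak lists: a thresholded and a ranked list for each replicate, and for the pair of replicates a pooled and a conservative version. Each list used a control alignment that was not analysed here. Which caller and aligner were run is not given in the sources used here, for any list. Deposited signal is the peak caller's value per peak, with no stated rescaling between libraries. The deposited score rises as the IDR falls, and no conservative score was under 830. The deposited ranked lists give the global IDR as -log10, capped at 5. Read depth is unknown.

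Summits were set against Ensembl BDGP6.54 (release 115) and the Release 6 sequence. No coordinate ran past the end of its chromosome arm, and 1 conservative peak on another sequence was left out. Replicate signals came from each replicate's ranked list, by overlap of 1 bp or more and the nearest summit. Membership in a replicate's set was judged by the same overlap, and in the pooled set by identical position unless overlap is named. Words were sought on both strands within 50 bp of each summit. Overlapping matches were allowed. Assignment, matching and word counting were tested on simulated data. No test was run: the design holds 1 group, and peaks are not replicates. Genes named are the 5, any gene with a TSS within 500 bp of their summits, the most similar gene by the stated rule and the strongest of the listed head genes, while Irk1, CG46310, fzo and the 4 listed head genes without a summit were named after their values were seen. The 5 genes and all lists were chosen with earlier results of these data known. Figures were drawn with matplotlib 3.10.9, and tables were handled in Python 3.11.15 with pandas 2.3.3 and numpy 2.4.6, with intervals from scipy 1.17.1.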

Additional observations from a re-analysis of the deposited data

How the results depend on the processing

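A stricter IDR of 0.001 left 11 of the 18 summits, with a median signal of 216.8, and start summits at 3 of the 5 genes (ems, oc and btd). Gene bodies without flanks held 6 summits, and 5 kb flanks left 12 in all, with 1 at btd. With 20 kb either side the median signal was 133.1, and the number at ems was 6 in place of 3. Within 200 bp of a TSS, 2 of the 5 genes kept a start summit. Using the set of a single replicate, totals ran from 10 (replicate 2 alone) to 19, and genes with a start summit from 4 to 5. Any of the 10 words was in 6 of 10 windows for replicate 2 alone (60.0%, against 51.0% of that whole set). For replicate 1 alone it was 11 of 19 (57.9%, against 53.6%), where the conservative set had 12 of 18. Median signals, on each library's own scale, ran from 89.0 to 100.4. Replicate 2 alone held 2 summits at cnc and 0 at Sp1. With 50% of each peak required, 6 peaks were shared between replicates in place of 10. For the stricter IDR, the 200 bp limit and the 50% overlap, shares over all peaks or genes are not given here. These counts therefore do not tell whether the 5 genes lost more sites than others did. The median relative replicate ratio stayed between 0.28 and 0.69 in every alternative run. Reaching 100 bp from the summit, at least 1 word was in 15 of 18 windows (83.3%, against 79.0% of all conservative windows). At that reach GAGAGA was in 6 windows (33.3%, against 15.7%), ACAGTG in 4 (22.2%, against 18.2%) and GGGCGG in 2 (11.1%, against 6.61%). CACACA was in 6 (33.3%, against 19.6%) and GATAA in 4 (22.2%, against 36.5%). TAATTA was in 2, and CAGGTA and CAGCTG in 1 each. Counting only summits nearest to a TSS of the gene itself, chosen after seeing the data, left 13, with 1 at btd and 3 at cnc. No paired analysis was possible because there is 1 group and no test. Depth is unknown, so weak sites that were not called cannot be taken as unbound.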

Other observations

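Some listed peaks overlapped a stronger neighbour. In the conservative set 291 of 4099 peaks (7.1%) overlapped a stronger peak, at a median summit distance of 203 bp (middle 50% from 201 to 209 bp), and their median signal was 19.3, against 123 for the others. At the 5 genes this was the weaker summit of the oc intron. In the pooled set it was a summit at ems with a signal of 8.57, 199 bp from the downstream one, and in the set of replicate 1 a summit with a signal of 2.47, 202 bp from the oc start summit. Both of these carried the highest IDR score, 1000, in their list. The deposited signal of a conservative peak was otherwise close to the sum of its replicate signals, with a median ratio of 0.999, whereas for overlapping peaks the median ratio was 0.153.

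Of these overlapping peaks 41.2% were also in the pooled set at the same position, against 93.5% of the others. A count of summits per gene includes them.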
